A study of Homo sapiens with 4 samples.

Results

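K562 cells exposed to 20 µM atovaquone for 5 h were compared with K562 cells given vehicle (DMSO) for 5 h, on 1 expression array each, which are 2 of the 4 arrays of the series. Both K562 arrays were taken by their labels, and all their probe sets were used. The other 2 arrays hold U266, a multiple myeloma line, with vehicle or with 15 µM atovaquone for 2 h. K562 is a chronic myeloid leukaemia line with erythroid features, and it carries the BCR-ABL1 fusion kinase. Both arrays come from 1 cell line. Neither group was replicated (1 array each), which leaves no spread to test against, and every ratio describes this pair of arrays. No untreated or other time point of K562 was analysed here.

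Atovaquone is a hydroxynaphthoquinone used against malaria and Pneumocystis that competes with ubiquinol at complex III of the mitochondrial respiratory chain. In mammalian cells, stress in mitochondria or in the endoplasmic reticulum (ER) can lead to phosphorylation of the translation factor eIF2α, after which ATF4, a transcription factor, raises genes of amino acid synthesis and transport; this is the integrated stress response. ER stress also activates the unfolded protein response, in which XBP1 and ATF6 raise chaperones and the machinery of ER-associated degradation. The genes described here lie outside a list of 64 known ATF4 and integrated stress response genes, of which 53 were measured in K562, with a median log2 ratio of 0.53 and 22 members at least 1.5-fold higher. Absence from this list does not place a gene outside that pathway, and whether ATF4 acts on the genes described was not tested.

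Values are the authors' intensities in arbitrary units, and each comparison is a log2 ratio, atovaquone minus vehicle, centred on the median ratio. A gene counted as measured when it lay at or above the floor, the 40th percentile of each array over listed probe sets, which was 305 for vehicle and 306 for atovaquone. That left 10759 of 18417 genes, and 10706 of them lay outside the ATF4 list. Where a gene fell under the floor on 1 array, the fold is a lower limit and is written "at least". As technical scatter, 369 genes carried several measured probe sets, and the SD of 1 probe set's log2 ratio estimated from them was 0.12. This covers scatter within an array and leaves out the spread between cultures.

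The labelled cell type was checked against markers. All 9 K562 identity genes that have a probe set of their own were above the floor on both arrays, among them the embryonic globin genes HBZ and HBE1 and the erythroid regulators GATA1, TAL1 and KLF1. Their summed intensity was 24778 with vehicle and 24611 with atovaquone. The median log2 ratio of the 9 was −0.14, and single values ran from −0.37 for LMO2 to 0.19 for HBE1. Of 20 markers of lymphoid, plasma, monocytic, stromal, endothelial and epithelial cells, 9 were below the floor on both arrays, including CD4, MS4A1, JCHAIN, CSF1R and CDH5. So were 7056 of all 18355 genes outside the ATF4 list, so the count of 9 separates these markers little from other genes. The 11 above it were CD3D, CD3E, CD8A, MZB1, CD14, COL1A1, COL3A1, KRT5, KRT14, LYZ and EPCAM. Among these the lysozyme gene LYZ stood at 3113 with vehicle and 3524 with atovaquone, and the epithelial adhesion gene EPCAM at 1867 and 2418. The summed intensity of these 20 was 10699.7 with vehicle and 11674 with atovaquone, and their part in the results was not tested. Array medians were 314 and 319, and the rank correlation between both arrays was 0.990.

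Outside the ATF4 list 15 genes had at least 2-fold higher values with atovaquone (0.14% of those measured) and 14 at least 2-fold lower (0.131%). At 1.5-fold the counts were 131 higher (1.22%) and 75 lower (0.701%). Of all 10706 genes 48.7% lay above 0 and 51.3% below 0. Counts for the lists below are to be read beside these shares. The central 90% of all log2 ratios lay between −0.34 and 0.36. The genes just inside 2-fold were TNFRSF10B at 1.01 and PHF23 at −1.01, and those just outside it were ST6GALNAC1 at 0.999 and GPR63 at −0.96. The counts depend on the floor. Raised to the 60th percentile, it left 8 genes at least 2-fold higher and 6 lower, and without any floor there were 60 and 31. With the higher floor TUBE1, NIBAN1, NEMP2 and FILIP1L had lower limits of 0.84, 0.61, 0.55 and 0.99 on the log2 scale. SNORD14E, SNORD50B, RNVU1-15, JMJD6 and H2AC4 had upper limits of −0.48, −0.58, −0.40, −0.67 and −0.93, and H3C1, SNORA74A and PHF23 of −0.63, −0.75 and −0.78. These genes were then no longer shown to reach 2-fold. CCDC71L, CYP3A5 and MIR223 also became lower limits, of 1.06, 1.44 and 1.27, which still lie above 2-fold. The 3955 measured probe sets that the annotation does not list were unnamed here. Among these sets 14 lay 2-fold or more above vehicle (0.354%) and 21 below it (0.531%), with 145 (3.67%) and 75 (1.9%) at 1.5-fold.

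**Figure D1:**
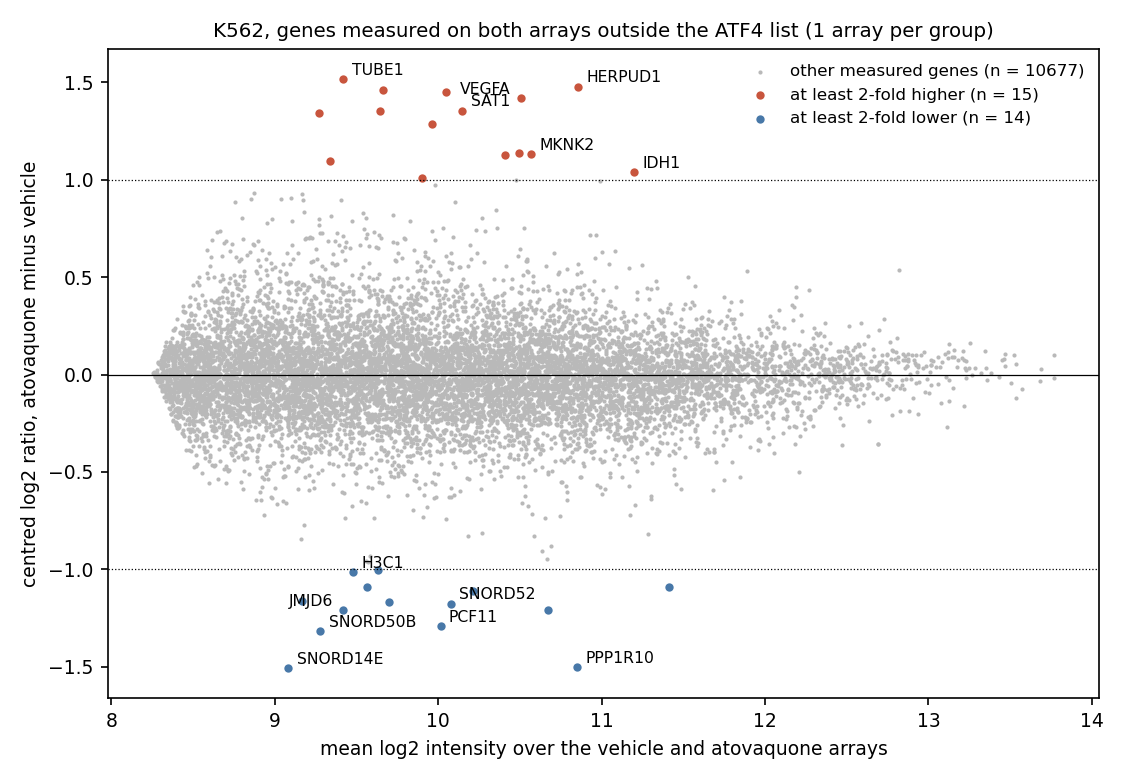
Centred log2 ratio of atovaquone to vehicle (vertical axis) against the mean log2 intensity of both K562 arrays (horizontal axis), with 1 point per gene measured on both arrays outside the ATF4 list. Red points are the 15 genes at least 2-fold higher, blue points the 14 at least 2-fold lower, and dotted lines mark 2-fold.

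Protein quality control in the ER gave the second highest ratio. HERPUD1, a membrane protein of the ER-associated degradation complex, had an intensity of 1113 with vehicle and 3091 with atovaquone, and was 2.79-fold higher. XBP1, the transcription factor of the unfolded protein response, went from 1649 to 2546, or 1.55-fold higher. HSPA5, the ER chaperone BiP, stood at 4000 and 5434, or 1.36-fold higher. Other genes of the pathway showed no common direction. Of 21 measured genes of ER-associated degradation and its regulators, 2 were at least 1.5-fold higher (9.52%, against 1.22% of all measured genes). In the other direction 1 was at least 1.5-fold lower (4.76%, against 0.701%). The median of the 21 was 0.06, against −0.01 over all measured genes. The lower one was EDEM3, a mannosidase-like protein that marks glycoproteins for degradation, at 2054 and 1153, or 1.78-fold lower. The 20 measured ER chaperones and folding enzymes had a median of −0.06, and 14 of them lay below 0. SDF2L1 and FKBP11, both resident in the ER, stood at −0.39 and −0.37.

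The promoter of HERPUD1 is shown because no other promoter searched among the 20 highest held one of the 4 stress signalling motifs named next. Genes without a promoter to search were left out. Of 15 genes at least 2-fold higher, 12 had a promoter in RefSeq's table (GRCh38.p14), which spans 250 bases before to 50 bases after each gene start. The C/EBP-ATF response element core is TGATGNAA on either strand, and the others searched were the ER stress response element, the ER stress response element II and the unfolded protein response element core TGACGTGG. The stretch shown is chr16:56931921-56932080 on the plus strand, with the matched letters in capitals. The first match is the C/EBP-ATF core on the opposite strand, at position −176 from the gene start, and the second is the ER stress response element II, at −117.
HERPUD1 promoter: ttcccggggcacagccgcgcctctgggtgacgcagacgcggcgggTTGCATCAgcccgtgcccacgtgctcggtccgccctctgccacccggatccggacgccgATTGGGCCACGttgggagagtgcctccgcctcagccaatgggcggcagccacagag

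The C/EBP-ATF core was present in 1003 of all 27305 promoters of the table (3.67%), in 133 of 8621 promoters of measured genes outside the ATF4 list (1.54%) and in 9 of 45 promoters of measured ATF4 list genes (20%). The ER stress response element II was present in 15 of all 27305 (0.0549%) and in 10 of the 8621 (0.116%). For the 131 genes at least 1.5-fold higher and the 75 at least 1.5-fold lower, 101 and 49 had a promoter in the table. Those shares are under 80%, so a motif check over either set is void. A match is a description of letters and does not show that a factor binds there.

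Signalling and growth factor genes were also among the highest. VEGFA, the growth factor that drives vessel formation, had an intensity of 892 with vehicle and 2381 with atovaquone, or 2.68-fold higher. Of 17 measured targets of the hypoxia-inducible factor HIF1, VEGFA was the only one at least 1.5-fold different, and their median was −0.01. MKNK2, a kinase that phosphorylates the cap-binding protein eIF4E, stood at 1028 and 2245, or 2.19-fold higher. TNFRSF10B, the TRAIL death receptor DR5, stood at 676 and 1358, or 2.02-fold higher. PMAIP1, the BH3-only protein NOXA, was 1.61-fold higher, whereas TNFRSF10A, the other TRAIL death receptor, was 1.44-fold lower. Of 23 measured BCL2 family and caspase genes only PMAIP1 reached 1.5-fold, and the median was −0.06.

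Metabolic enzymes of different pathways made up a further part. SAT1, which acetylates spermidine and spermine for breakdown, went from 711 to 1812, or 2.56-fold higher. AMD1, which supplies the aminopropyl donor for making these polyamines, stood at 3145 and 2032, or 1.54-fold lower. Of 12 measured polyamine genes these 2 were the only ones at least 1.5-fold different. That is 8.33% in each direction, against 1.22% higher and 0.701% lower of all measured genes. IDH1, the cytosolic NADP-linked isocitrate dehydrogenase, stood at 1641 and 3359, or 2.05-fold higher, and CYP3A5, a cytochrome P450 of drug metabolism, at 640 and 1746, or 2.74-fold higher. AKR1C1, an aldo-keto reductase and NRF2 target, stood at 418 and 793, or 1.90-fold higher. It was the only one of 19 measured NRF2 list genes at 1.5-fold. SQSTM1, an autophagy receptor on the same list, was 1.48-fold higher, and HMOX1, heme oxygenase 1, stood at 916 and 861.

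Other genes among the highest had varied functions. TUBE1, the epsilon-tubulin of centrioles, had the highest ratio, with 405 for vehicle and 1158 for atovaquone, or 2.87-fold higher. MAP1B, a microtubule-associated protein, stood at 975 and 2136, or 2.20-fold higher. TRAK2, an adaptor that links mitochondria to motor proteins, stood at 921 and 2008, or 2.19-fold higher. TUBE1 was the only one of 34 measured actin, tubulin and adhesion genes to reach 1.5-fold, and their median was −0.03. CCDC71L stood at 490 and 1343, FILIP1L at 501 and 1279, and NIBAN1 at 389 and 983, which is 2.75-fold, 2.56-fold and 2.54-fold higher. NEMP2, a protein of the nuclear envelope, was 2.14-fold higher, and ST6GALNAC1, a sialyltransferase, stood at 1011 and 2013. Both of these were higher by at least 1.5-fold in each of their 2 probe sets, as were AKR1C1 and FAM220A. Such agreement at 1.5-fold was not general. Outside the ATF4 list 16 genes with several measured probe sets had any of them at least 1.5-fold different. In 7 of these 16 all probe sets were so, the same way. Some of the others fell just short of 1.5-fold in 1 set, such as TWF1, with log2 ratios of −0.63 and −0.58. Of the 16, only ATXN7L1, RPL27A and TRA2A had probe sets on both sides of 0. TRA2A had log2 ratios of −0.07 and 0.70 in its 2 probe sets.

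GTPBP2, a GTPase of ribosome rescue, stood at 1445 and 2868, or 1.99-fold higher, and SEPSECS, the last enzyme in making selenocysteine on its tRNA, at 721 and 1411, or 1.96-fold higher. ARRDC3, an alpha-arrestin, was 1.79-fold higher, and GAB2, a docking protein that binds BCR-ABL1, was 1.73-fold higher. INSIG1, which holds the sterol sensor SCAP in the ER, was 1.56-fold higher. ID2 and ID1 are both inhibitors of basic helix-loop-helix factors. ID2 stood at 315 with vehicle, near the floor, and 522 with atovaquone, or 1.67-fold higher. ID1 stood at 760 and 443, or 1.71-fold lower.

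Some genes crossed the floor. Outside the ATF4 list 290 genes were below the floor with vehicle alone and 303 with atovaquone alone. Bounds of at least 2-fold were found for 6 of the 290, which were higher, and for 0 of the 303. TSC22D3, the glucocorticoid-induced leucine zipper protein, had a vehicle intensity of 284, below the floor, and 1150 with atovaquone, so it was at least 3.78-fold higher. TMPRSS11F was at least 2.47-fold higher, TMEM154 at least 2.40-fold and PPP1R3C, a glycogen-targeting subunit of protein phosphatase 1, at least 2.27-fold. ZC3H6 and FAM107B were at least 2.03-fold and 2.02-fold higher, and INHBE, the inhibin beta E chain, stood at 149, below the floor, and 608, with a lower limit just under 2-fold. In the other direction NR1D1, the clock repressor REV-ERB alpha, stood at 507 with vehicle and 293 with atovaquone, so it was at least 1.65-fold lower. Its paralog NR1D2 was measured on both arrays and was 1.51-fold higher. All such limits follow from where the floor is set.

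**Figure D2:**
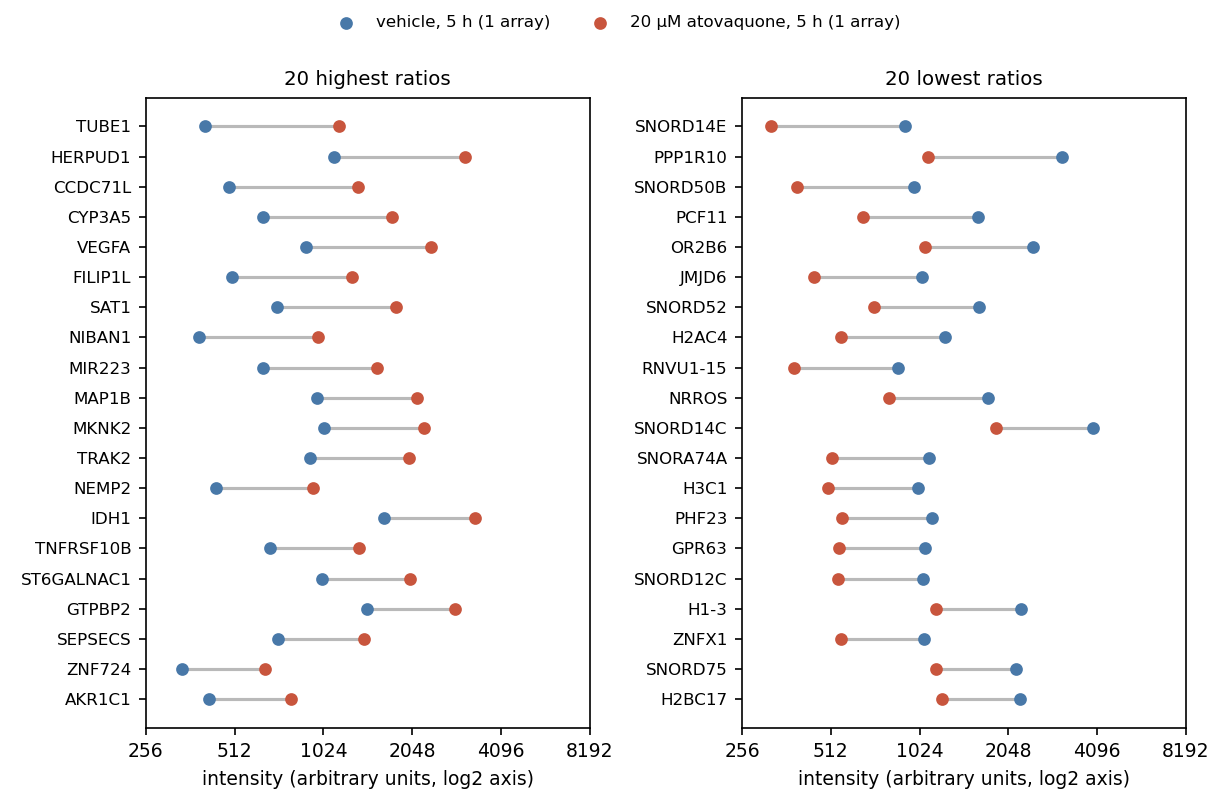
Intensity on the vehicle array (blue) and on the atovaquone array (red) for the 20 genes with the highest and the 20 with the lowest log2 ratio outside the ATF4 list, on a log2 axis in arbitrary units, with 1 array per point. The highest panel runs from TUBE1 (405 and 1158) to AKR1C1 (418 and 793), and the lowest from SNORD14E (917 and 321) to H2BC17 (2248 and 1217).

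The lowest protein-coding genes had varied functions. PPP1R10, the nuclear subunit PNUTS of protein phosphatase 1 that acts in transcription termination, had an intensity of 3106 with vehicle and 1094 with atovaquone, or 2.83-fold lower. PCF11, a cleavage and termination factor of mRNA 3′ ends, stood at 1621 and 660, or 2.45-fold lower. JMJD6, a Jumonji-domain hydroxylase of the nucleus, stood at 1044 and 450, or 2.31-fold lower. PCF11 was the 1 gene out of 36 measured on the list of 3′ end processing, Integrator and elongation that reached 1.5-fold, and the list median was −0.02. PHF23, a PHD finger protein, and ZNFX1, a helicase-like zinc finger protein, were 2.01-fold and 1.91-fold lower. NRROS, which tethers latent TGF-beta to myeloid cells, stood at 1752 and 808, or 2.16-fold lower. OR2B6, an olfactory receptor gene, stood at 2486 and 1071, or 2.31-fold lower, and it lies next to the histone gene H2BC17 among measured genes.

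Histone genes that are expressed with DNA replication had the lowest list median. Of 42 measured, 31 lay below 0 (73.8%, against 51.3% of all measured genes), with a median log2 ratio of −0.22. Of the 42, 8 were at least 1.5-fold lower (19%, against 0.701% of all measured genes) and 0 higher. H2AC4 stood at 1246 with vehicle and 552 with atovaquone, or 2.25-fold lower, and H3C1 at 1014 and 501, or 2.02-fold lower. The linker histone gene H1-3 stood at 2255 and 1167, or 1.93-fold lower. Levels of all 3 were thus lower with atovaquone on this pair of arrays, as was H2BC17, at 1.84-fold. Other genes of S phase gave different values. The 47 measured DNA replication genes had a median of −0.00 and 0 were 1.5-fold different, and GINS1 and FEN1 were the lowest at −0.53 and −0.43. Whether fewer cells were in a given phase or each held less RNA cannot be told apart in bulk RNA. Histone genes are near-identical copies, and signal shared between their probe sets was not tested. Of 12 distinct histone probe sets that carry several symbols, 11 lay below 0, and the exception was the pair H4C14/H4C15, at 1859 and 3139, or 1.69-fold higher.

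Small nucleolar RNAs guide the modification and cleavage of ribosomal RNA, box C/D members directing ribose methylation and box H/ACA members pseudouridylation. Of 57 measured box C/D genes 36 lay below 0, with a median of −0.18, and 9 were at least 1.5-fold lower (15.8%, against 0.701% of all measured genes) and 0 higher (against 1.22%). Several of the 9 share the host gene HSPA8 or GAS5, so they are not 9 separate loci. All measured genes were also split by mean intensity into 4 classes of equal size. From dimmest to brightest, the box C/D medians were 0.08, −0.23, −0.24 and −0.02. Genes at least 1.5-fold lower numbered 1, 2, 3 and 3. SNORD50B stood at 983 with vehicle and 393 with atovaquone, or 2.49-fold lower, and SNORD52 at 1626 and 717, or 2.26-fold lower. SNORD14E and SNORD14C, copies of U14 within introns of the chaperone gene HSPA8, stood at 917 and 321 and at 3980 and 1859, or 2.85-fold and 2.13-fold lower. Their host HSPA8 itself stood at 12497 and 11830, with a log2 ratio of −0.07. SNORD12C was 1.94-fold lower, and its host ZFAS1 had a log2 ratio of −0.24.

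Each small RNA of the host gene GAS5 that has a value of its own lay below 0. SNORD75 was 1.87-fold, SNORD81 1.66-fold, SNORD78 1.56-fold and SNORD44 1.53-fold lower. SNORD77 was at least 1.67-fold lower, and SNORD79 and SNORD74 had log2 ratios of −0.37 and −0.30. GAS5 has no probe set of its own here, so its level cannot be set beside these. Across 23 box C/D genes with exactly 1 host that was measured, the median was −0.14, and for the 15 hosts it was 0.01. Of the 23, 14 were lower than their host, and 0 of the hosts were 1.5-fold different. Box H/ACA and Cajal body RNAs had a positive median of 0.06 over 42 measured genes, but −0.05 over 23 probe sets with several symbols. Among the 42 genes 1 member, SNORA74A, reached 1.5-fold, at 1106 and 517, or 2.13-fold lower. RNVU1-15, a variant U1 small nuclear RNA, was 2.24-fold lower, and both of its probe sets were lower. The RNA was purified on spin columns per the labels, which hold short RNAs poorly, and such a probe set can also take signal from the host's precursor; neither was tested.

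RNA of ribosome assembly factors lay mostly below 0. Of 53 measured ribosome biogenesis factors 47 lay below 0 (88.7%, against 51.3% of all measured genes), with a median of −0.16. NIP7, an assembly factor of the large subunit, was the 1 member at 1.5-fold, at 4041 and 2671. URB2, RRS1 and NOP16, all nucleolar, were 1.48-fold, 1.41-fold and 1.39-fold lower. Nuclear pore and transport genes had a median of −0.14 over 41 members and DEAD and DEAH box helicases of −0.13 over 42. Cytosolic ribosomal protein genes went the other way, with 56 of 64 above 0 (87.5%, against 48.7% of all measured). Their median was 0.07, although none was 1.5-fold different in the probe set taken for it. The 3 probe sets of RPL27A ran from −0.65 to 0.30. Of 45 ribosomal protein sets with several symbols, 32 lay above 0 and 13 below, and 1 was at least 1.5-fold lower. No test of a list was run.

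Genes of mitosis had a median of −0.17, with 38 of 47 below 0 (80.9%, against 51.3% of all measured genes). None was at 1.5-fold. KIF23 and ASPM, of the midbody and the spindle pole, and CCNB1, the mitotic cyclin, were 1.40-fold, 1.37-fold and 1.34-fold lower, and the phosphatase gene CDC25C was 1.35-fold higher. Kinesin genes had a median of −0.17, and 2 of 31 were at least 1.5-fold lower (6.45%, against 0.701% of all measured genes). The median was −0.10 with no floor and −0.07 with the floor taken over all probe sets. These were KIF18B, at 1240 and 773, and KIFC1, at 1359 and 882, both motors of the mitotic spindle. KIFC1 was lower by 1.5-fold in both of its probe sets, and those of KIF18B had log2 ratios of −0.68 and −0.55.

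Zinc finger genes with symbols of ZNF and a number, which leaves out ZNFX1, are called ZNF genes here. They held the most genes at least 1.5-fold higher of the families defined by symbol, and were also the largest such family. By share, olfactory receptor genes (1 of 12, 8.33%) and microRNA genes (2 of 28, 7.14%) stood above them. Many ZNF genes encode KRAB-domain proteins that repress transposable elements and other genes. Of 292 measured 192 lay above 0, with a median of 0.08, and 20 were at least 1.5-fold higher (6.85%, against 1.22% of all measured genes) and 0 lower. ZNF724 stood at 340 with vehicle and 648 with atovaquone, or 1.91-fold higher. ZNF627 stood at 558 and 991, ZNF708 at 638 and 1120, and ZNF429 at 491 and 860, or 1.78-fold, 1.76-fold and 1.76-fold higher. Most ZNF genes were dim, so the measured genes were split by mean intensity into 4 classes of equal size. In the dimmest class 8 of 110 ZNF genes were at least 1.5-fold higher (7.27%, against 1.27% of all genes of that class), and in the next 9 of 95 (9.47%, against 2.20%). In the third class it was 3 of 58 (5.17%, against 1.12%), and in the brightest 0 of 29 (against 0.299%). The ZNF median was above 0 in each class, between 0.05 and 0.10. A floor at the 60th percentile gave a count of 5, and no floor 38. Of those higher, 3 pairs are neighbours among measured genes, ZNF90 with ZNF486, ZNF429 with ZNF100 and ZNF730 with ZNF724, and signal shared between such similar copies was not tested.

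**Figure D3:**
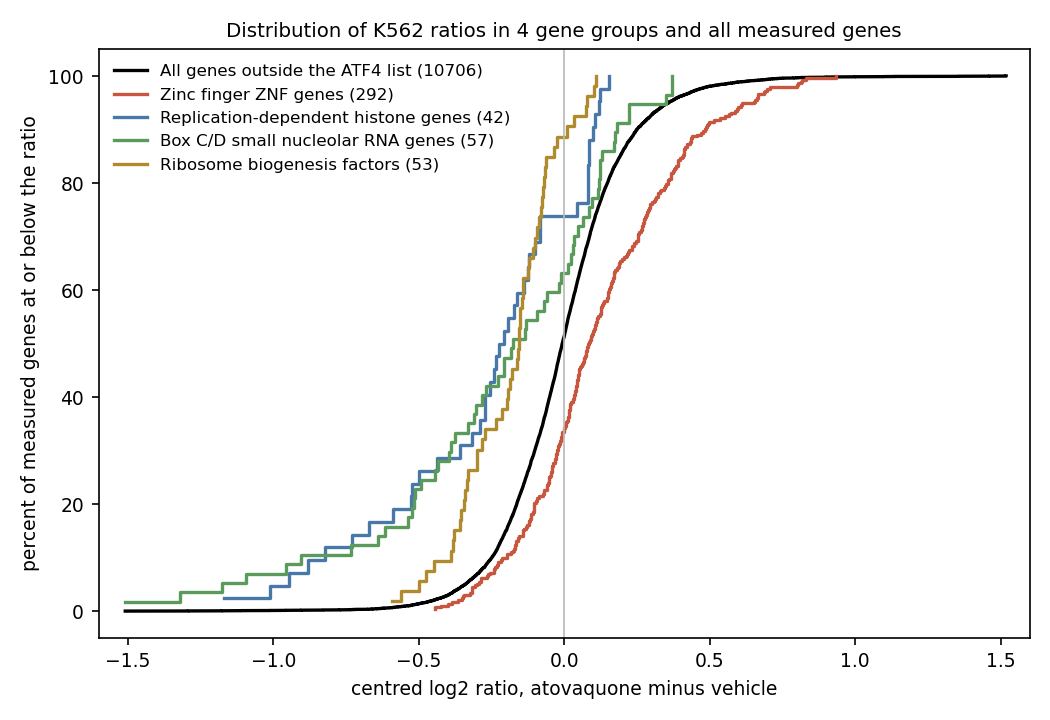
Percent of measured genes at or below each log2 ratio in K562, for 292 ZNF genes (red), 42 replication-dependent histone genes (blue), 57 box C/D small nucleolar RNA genes (green), 53 ribosome biogenesis factors (ochre) and all 10706 genes outside the ATF4 list (black). The ZNF curve lies to the right of the black one, and the other 3 lie to its left over most of the range.

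Nuclear genes of the respiratory chain differed little. The 15 mitochondrially encoded genes on the list have no probe set of their own here and were not analysed. The 13 measured complex III subunits and assembly factors, the complex on which atovaquone acts, had a median of 0.07 and none reached 1.5-fold. CYC1, which encodes cytochrome c1, stood at 2602 with vehicle and 2984 with atovaquone, and UQCRC1, a core subunit, at 940 and 1049. For complexes I, II and IV and ATP synthase 45 of 61 genes lay above 0 (73.8%, against 48.7% of all measured genes). Their median was 0.06. DHODH, the pyrimidine enzyme that passes electrons to ubiquinone, stood at 492 and 380, or 1.29-fold lower. OMA1 and DELE1, which relay mitochondrial stress to the cytosol, had log2 ratios of 0.18 and 0.32. GRPEL1, a co-chaperone of protein import, was 1.58-fold lower and PPARGC1B, a coactivator of mitochondrial biogenesis, had a log2 ratio of −0.59.

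Signalling genes linked to BCR-ABL1 showed no common direction. The 24 measured genes of the BCR-ABL1 and STAT5 list had a median of −0.08. GAB2 was the only one at least 1.5-fold higher and ID1 the only one lower. That is 4.17% in each direction, against 1.22% higher and 0.701% lower of all measured genes. PIM1, a kinase gene induced by STAT5, stood at 4087 and 5361, or 1.32-fold higher, while CISH, a feedback inhibitor, stood at 979 and 1046. BCL2L1, the survival protein BCL-xL, stood at 3349 and 2911, and MYC at 6803 and 6856. BCR and ABL1 had log2 ratios of −0.18 and −0.13. MAP kinase feedback genes had a median of −0.14 over 16 members, among which the phosphatase gene DUSP7 was 1.52-fold and SPRED1, an inhibitor of RAF activation, 1.48-fold lower. IER3, an immediate early gene, was 1.67-fold lower, with both probe sets lower, and the early repressor KLF10 was 1.65-fold lower, whereas ZFP36L1, an mRNA decay factor, was 1.68-fold higher.

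Genes of heme synthesis and iron handling had the highest median of the metabolic lists, 0.10 over 19 members, with none at 1.5-fold. ALAS1 and ALAS2, the first enzymes of heme synthesis in all cells and in erythroid cells, were both 1.47-fold higher, at 1337 and 1959 and at 958 and 1405. FECH, the last enzyme of the pathway, was 1.37-fold higher, and TFRC, the transferrin receptor, stood at 6164 and 7481. The erythroid list had a median of 0.04 over 29 members, and HBB, the adult beta globin gene, at 333 and 505 near the floor, was its only member at 1.5-fold. RUNX1, a regulator of blood cell development, was 1.45-fold higher and GFI1B, an erythroid repressor, 1.38-fold lower. The fetal and alpha globins share their probe sets, and HBG1/HBG2 and HBA1/HBA2 had log2 ratios of 0.07 and 0.01.

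**Figure D4:**
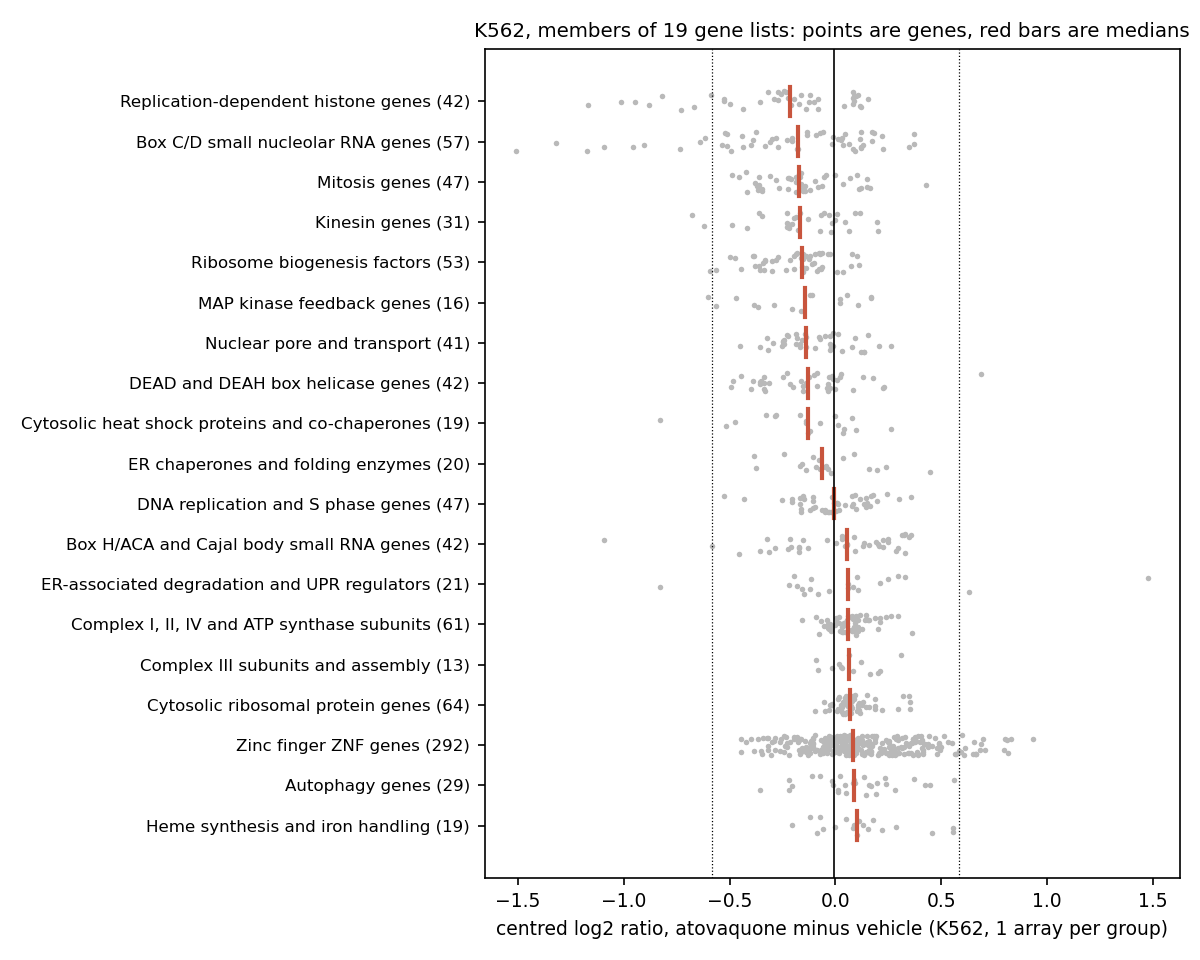
Log2 ratio of each measured member (grey points) of 19 gene lists in K562, with the median of each list as a red bar and the number measured in parentheses. The solid line is the median of all 10706 genes, −0.01, and dotted lines mark 1.5-fold; medians run from −0.22 for histone genes to 0.10 for heme synthesis and iron handling.

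MicroRNA genes are given with their mature sequences, because a short RNA is best identified by its letters. The array measures RNA of the gene, and not the mature product. MIR223, a microRNA gene of the myeloid lineage, had an intensity of 639 with vehicle and 1553 with atovaquone, or 2.44-fold higher. MIR15A stood at 389 and 604, or 1.56-fold higher, and MIR142, transcribed across blood lineages, stood at 538 and 288, below the floor, so it was at least 1.75-fold lower. Of 28 measured microRNA genes these higher 2 were the only ones at 1.5-fold (7.14%, against 1.22% of all measured genes). The median was −0.06. The sequences are from RefSeq (GRCh38.p14), with the seed, bases 2 to 8, in capitals, and no seed is shared among them.
miR-223-5p: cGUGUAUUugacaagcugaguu
miR-223-3p: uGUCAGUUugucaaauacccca
miR-15a-5p: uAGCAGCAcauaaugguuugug
miR-15a-3p: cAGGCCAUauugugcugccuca
miR-142-5p: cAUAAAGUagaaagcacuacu
miR-142-3p: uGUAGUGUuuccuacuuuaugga

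Probe sets that carry several gene symbols cannot be given to 1 gene and were described by all their symbols together. Of 973 with distinct values 2 reached 2-fold in the higher direction (0.206%) and 4 at least 2-fold lower (0.411%), and at 1.5-fold 10 were higher (1.03%) and 9 lower (0.925%). The 4 lower by 2-fold all belong to HSPA1A/HSPA1B, the stress-inducible HSP70 genes. Their intensities were 3751, 4267, 4352 and 4412 with vehicle and 1763, 2100, 2076 and 2109 with atovaquone, and the log2 ratios ran from −1.08 to −1.02. HSPA6/HSPA7, further HSP70 genes, stood at 470 and 326, a log2 ratio of −0.52. Among heat shock genes with a probe set of their own, DNAJB1, the HSP40 partner of HSP70, stood at 1554 and 872, or 1.78-fold lower. CHORDC1 and BAG3, co-chaperones, were 1.43-fold and 1.39-fold lower, and the median of 19 such genes was −0.13, with 13 below 0.

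On the high side the pair CCPG1/DNAAF4-CCPG1, of which CCPG1 is an ER-phagy receptor, stood at 794 with vehicle and 1919 with atovaquone, or 2.43-fold higher. The pair FPGT/FPGT-TNNI3K stood at 521 and 1061, or 2.04-fold higher. AMACR/C1QTNF3-AMACR, which covers a racemase of branched fatty acids, had a log2 ratio of 0.84 and PPP1R2/PPP1R2B/PPP1R2P1, inhibitors of protein phosphatase 1, of 0.74. Some of these names are readthrough transcripts that share exons with their partner, so both names refer largely to the same RNA.

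Small nucleolar RNAs and their hosts made up most of the remaining low sets. The U3 group SNORD3A/SNORD3B-1/SNORD3B-2/SNORD3C/SNORD3D, box C/D RNAs that act in cleavage of ribosomal RNA, stood at 2789 with vehicle and 1459 with atovaquone, a log2 ratio of −0.93. SNHG12/SNORA44 and SNHG12/SNORA16A/SNORA44/SNORA61 had log2 ratios of −0.67 and −0.62, and RPS3A/SNORD73A of −0.59. Of 20 box C/D probe sets with several symbols 14 lay below 0, with a median of −0.16. For box H/ACA and Cajal body RNAs 14 of 23 such sets lay below 0. Of these 23, 2 were at least 1.5-fold lower and 1 at least 1.5-fold higher, at 0.69. CHURC1-FNTB/FNTB, which covers a subunit of farnesyltransferase, had a log2 ratio of −0.62. For ZNF genes, 18 of 26 such sets lay above 0, with a median of 0.16.

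**Figure D5:**
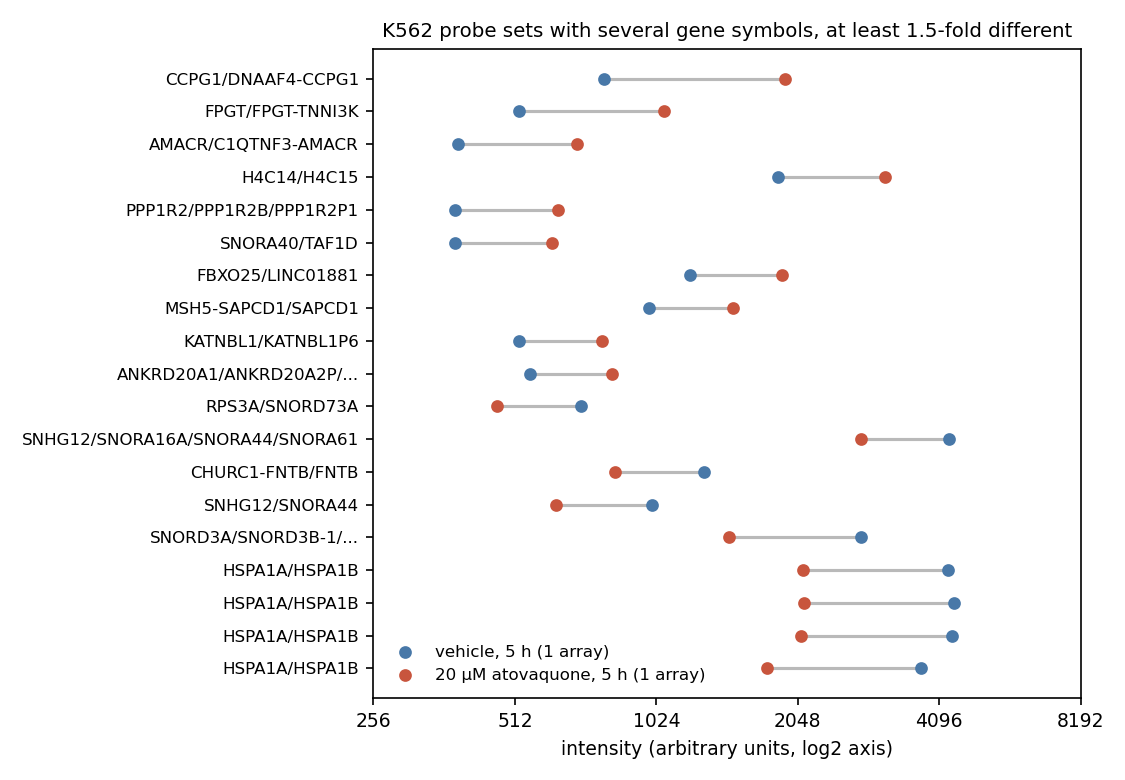
Intensity on the vehicle array (blue) and the atovaquone array (red) of the 19 K562 probe sets that carry several gene symbols and were at least 1.5-fold different, on a log2 axis in arbitrary units, with 1 array per point. The 10 higher sets are led by CCPG1/DNAAF4-CCPG1 (794 and 1919), and the 4 lowest sets are those of HSPA1A/HSPA1B, all lower with atovaquone.

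The U266 arrays differ from these in line, dose and time, so their values are given beside the K562 ones without a comparison. Among 10664 genes measured in U266 outside the ATF4 list, 30 had at least 2-fold higher values with atovaquone (0.281%) and 0 lower (0%), with 88 higher (0.825%) and 10 lower (0.0938%) at 1.5-fold. Of the 131 genes at least 1.5-fold higher in K562, 96 were measured in U266 and 4 of those were at least 1.5-fold higher there, as were 69 of all 9167 genes measured in both lines. Of the 75 lower in K562, 60 were measured in U266, and 4 of those were at least 1.5-fold higher there. HERPUD1, VEGFA and IDH1 had U266 log2 ratios of 0.16, 0.24 and 0.01, and PPP1R10, PCF11 and JMJD6 of −0.36, −0.55 and 0.44. SAT1 was at least 1.5-fold higher in both, with a U266 lower bound of 3.13 on the log2 scale. CYP3A5, FILIP1L, MIR223 and MAP1B were below the floor on both U266 arrays.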

How the data were processed

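Each array's deposited value for a probe set is an intensity on a linear scale, processed by the authors; their software, background correction and normalisation stand as not given in the sources used here. Total RNA, extracted with Trizol and cleaned on a column, was turned into biotin-labelled cRNA for Affymetrix arrays, per the labels' protocols. Groups were taken from the labels, 1 array each, so p-values, SDs and tests could not be had.

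Of 33252 probe sets the annotation lists 21214, 19460 of them with 1 symbol and 1754 with several, and 12038 were unlisted. A gene took its 1-symbol probe set with the highest mean log2 intensity over both K562 arrays. Values under an array's 40th percentile over listed probe sets were raised to it. Log2 ratios were centred on the median of measured probe sets, which removed −0.0048. Identical values under several symbols were counted once. Sizes were fixed at 2-fold and 1.5-fold. The members, the 79 lists and families and the rule for named genes were chosen with earlier results of these data known, so they give no independent support. The pattern that defines microRNA genes was narrowed, and the lists described at length and the split by intensity were chosen, after values were seen. Members of the ATF4 list were left out of all other lists.

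Named genes were the 20 highest and 20 lowest, up to 8 bounds per direction, the 12 highest and 12 lowest several-symbol sets, up to 4 members per list, a fixed set of genes for BCR-ABL1, complex III, heme and stress, and genes with all probe sets 1.5-fold different. Alternatives were other floors, no centring, quantile normalisation and other choices of probe set. The calculation was tested on simulated data. Python 3.11.15, numpy 2.4.6, pandas 2.3.3 and matplotlib 3.10.9 were used. Promoter and microRNA sequences, neighbours and hosts come from RefSeq tables (GRCh38.p14).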

Additional observations from a re-analysis of the deposited data

Results flagged for a closer look

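Some genes lay at least 1.5-fold lower in K562 and at least 1.5-fold higher in U266, each with 1 array per group, and the difference between the lines was not tested. Line, dose and time differ together and cannot be told apart. DNAJB1 had a log2 ratio of −0.83 in K562 and 2.23 in U266. SNORD14C stood at −1.09 in K562 and 1.68 in U266, and SNORD14E at −1.51 and 2.73. The 4 HSPA1A/HSPA1B probe sets stood at −1.08, −1.06, −1.06 and −1.02 in K562 and at 3.38, 3.24, 3.23 and 3.37 in U266. On the K562 vehicle array these 4 sets had intensities of 3751 to 4412.

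Probe sets that the annotation does not list, and that are outside the genes compared above, also held large ratios. Of 3955 such sets measured in K562, 14 were at least 2-fold higher (0.354%) and 21 at least 2-fold lower (0.531%). At 1.5-fold 145 were higher (3.67%) and 75 lower (1.9%). These sets are unnamed here.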

How the results depend on the processing

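No paired analysis was possible because each group has 1 array and the labels give no replicate numbers, and no replicate could be left out. Counts moved with the floor, which sets how many dim genes are measured (10706 outside the ATF4 list as reported, 18355 with no floor, 14394 at the 20th percentile and 6999 at the 60th). Genes at least 2-fold higher numbered 15 as reported, 60 with no floor, 38 at the 20th and 8 at the 60th percentile, and genes at least 2-fold lower 14, 31 with no floor and 6 at the 60th. At 1.5-fold the higher count was 131, against 334, 211 and 48, and the lower count 75, against 190 with no floor and 44 at the 60th. At the 60th percentile 48 of the 131 higher and 43 of the 75 lower genes were still measured on both arrays at that size, and the others became bounds, some of them still past the size (CYP3A5 at 1.44), or went under it. ZNF genes at least 1.5-fold higher numbered 20, 38 with no floor and 5 at the 60th, and box C/D genes at least 1.5-fold lower 9 and, with no floor, 22. Several-symbol sets at least 2-fold higher numbered 2, 11 with no floor and 1 at the 60th. At 1.5-fold the higher ones numbered 10, 32 with no floor, 16 at the 20th and 4 at the 60th, and the lower ones 9 and 23 with no floor. The median of TGF-beta, SMAD and ID genes was −0.11 and turned to 0.081 with no floor and to 0.079 at the 20th percentile, where more of its members counted as measured. Of the recomputed list medians 615 moved by less than 0.12 on the log2 scale, the SD of 1 probe set, 2 reversed as given above and 1 moved by more. By the same measure 570 single-gene values stayed and 47 moved. A gene under the floor on both arrays at a setting was left out of these counts. At the 60th percentile 43 stayed and 21 moved, whereas with no centring all 79 genes compared stayed. No centring and quantile normalisation moved no count by over 1.5 times and no median by 0.12. Values near the floor became bounds at the 60th percentile, such as TUBE1 at 0.84 and SNORD14E at −0.48.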

Other observations

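The genes in these paragraphs were chosen after their values were seen, among those at least 1.5-fold different, and no theme was tested. Several genes with lower values act in making noncoding RNA. POLR1G, a subunit of RNA polymerase I, had an intensity of 848 with vehicle and 554 with atovaquone, a log2 ratio of −0.61. GTF3C4, of the polymerase III factor TFIIIC, stood at −0.62, POP1, a protein of RNase P and RNase MRP, at −0.74, and ISG20L2, a nucleolar exonuclease, at −0.72. TOE1, which trims the 3′ ends of small nuclear RNAs, stood at −0.64, and LCMT2, an enzyme of tRNA modification, at −0.67. Parts of the minor spliceosome differed in direction. The protein genes RNPC3 and SNRNP35 stood at 0.66 and 0.65, and the U11 RNA gene RNU11 at −0.63. For RNPC3 the other probe set stood at 0.39. The U5 RNA genes RNU5A-1 and RNU5B-1, neighbours among measured genes, stood at 0.71 and 0.63.

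Other genes with higher values encode regulators of growth and of cell death. PDCD4, which blocks the translation helicase eIF4A, stood at 0.72, HBP1, a transcriptional repressor, at 0.90, and SGK1, a kinase downstream of PI3 kinase, at 0.73. ERRFI1, an inhibitor of EGF receptor kinases, stood at 0.70. TNFSF10, the ligand TRAIL itself, stood at 0.69, beside the values of its receptors given above. ARG2, the mitochondrial arginase, stood at 0.90 and USP44, a deubiquitinase, also at 0.90. Of the 131 genes at least 1.5-fold higher 80 were on none of the lists (61.1%), and of the 75 lower 35 (46.7%), against 77% of all measured genes.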
